A study of Homo sapiens and Mus musculus with 47 samples.

Results

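This account concerns 10 genes that are widely used as readouts of canonical Wnt signalling: AXIN2, NKD1, NOTUM, RNF43 and ZNRF3, which restrain the pathway that induces them, the receptor LGR5, and the transcription factors ASCL2, SP5, MYC and TCF7. They were found by gene name among the 57820 human genes of the count tables, and each name matched 1 gene. The main table was Chrom-seq of HCT116, a colon carcinoma line, with 3 libraries of the TAF3 group and 3 of the Control group. In Chrom-seq a chromatin reader domain is fused to repeated GCN4 peptides, to which a single-chain antibody brings the peroxidase APEX2, and RNA near the reader is then biotinylated. In the TAF3 group the reader was the PHD finger of TAF3, which binds trimethylated lysine 4 of histone H3 (H3K4me3), a mark of active promoters. The Control group carried the same array and APEX2 with no reader. Cells of both groups expressed the components for 48 h, took up 500 µM biotin-aniline over 30 min and were then exposed for 1 min to 1 mM H2O2. RNA-seq of HEK293T, a human embryonic kidney line, was set beside it in 2 tables. The first held 3 libraries of cells with the reader CBX7, which binds trimethylated lysine 27 of histone H3, and 3 of a Control group, described in the supplement of the study as untreated cells. The second held cells transfected with antisense oligonucleotides (ASOs) against the long noncoding RNAs SETD5-AS1 (n = 3), LINC00641 (n = 2) and LINC00662 (n = 3), or with the negative control ASO, NC ASO (n = 3).

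In the canonical pathway, Wnt ligands bind Frizzled receptors and LRP co-receptors, which stops the destruction complex of APC, AXIN and GSK3 from marking beta-catenin for degradation. Beta-catenin then enters the nucleus and switches on genes bound by TCF and LEF factors. In the intestinal crypt these targets mark stem cells, and many of them feed back on the pathway: AXIN2 rebuilds the destruction complex, NKD1 acts against Dishevelled, NOTUM strips the lipid from Wnt ligands, and RNF43 and ZNRF3 remove Frizzled receptors from the cell surface. HCT116 carries a CTNNB1 allele whose product lacks a serine that the destruction complex needs to phosphorylate. The count tables hold no genotype, so that allele was not examined here.

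Promoters of SP5 and TCF7 are shown because SP5 and TCF7 were the members called with every targeting ASO against NC ASO, in opposite directions. Against the Control libraries SP5 was called with SETD5-AS1 ASO only, and TCF7 was not called with any ASO. A link between these promoters and the ASO values was not tested. RefSeq promoter entries (GRCh38.p14, 300 bases each, of which 250 lie before the start site) were examined for 3 members: SP5, TCF7 and RNF43. Promoters of the other members, MYC among them, were not examined, so their absence here does not show that no entry exists. The capitals mark matches to the 7-letter core of TCF/LEF motifs, which is CTTTG followed by AA, AT, TA or TT, searched on both strands, and no matches overlapped.
SP5, chr2:170715087-170715386, plus strand: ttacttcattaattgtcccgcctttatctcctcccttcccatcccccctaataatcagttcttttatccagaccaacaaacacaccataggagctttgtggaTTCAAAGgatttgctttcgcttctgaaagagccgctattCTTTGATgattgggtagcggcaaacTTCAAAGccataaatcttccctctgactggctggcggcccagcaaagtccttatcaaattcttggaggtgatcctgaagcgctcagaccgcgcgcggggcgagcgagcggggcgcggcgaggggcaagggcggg
TCF7, chr5:134115363-134115662, plus strand: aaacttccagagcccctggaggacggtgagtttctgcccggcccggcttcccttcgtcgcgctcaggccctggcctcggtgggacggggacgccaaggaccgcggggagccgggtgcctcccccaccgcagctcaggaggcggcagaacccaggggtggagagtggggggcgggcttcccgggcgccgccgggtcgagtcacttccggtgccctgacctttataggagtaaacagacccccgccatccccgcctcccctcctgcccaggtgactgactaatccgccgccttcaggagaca
TCF7, chr5:134123368-134123667, plus strand: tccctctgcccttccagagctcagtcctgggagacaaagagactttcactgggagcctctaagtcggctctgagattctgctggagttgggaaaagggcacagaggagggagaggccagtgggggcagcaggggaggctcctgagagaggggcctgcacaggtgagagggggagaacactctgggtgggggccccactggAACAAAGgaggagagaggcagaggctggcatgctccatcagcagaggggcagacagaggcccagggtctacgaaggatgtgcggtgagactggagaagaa
The SP5 promoter held 3 matches, starting 148, 109 and 84 bases before the start site. Of 35116 RefSeq promoters of this length, 13.8% held at least 1 match and 0.179% held at least 3. The upstream TCF7 promoter held none and the downstream TCF7 promoter held 1, starting 50 bases before its start site. Neither of the 2 RNF43 promoters held a match. The upstream TCF7 promoter was the richest in G and C, at 69.7% with 25 CpG dinucleotides, against 52.3% and 17 in SP5. A match is a string of letters in this window and does not show binding.

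The libraries matched their labels at the checks available, and 1 group stood apart. Totals were 14213105 to 17445889 counts in HCT116 and 8258859 to 15330874 in the 17 HEK293T libraries. The 15 colon epithelial markers summed to 4682 to 5381 CPM (the count of a gene relative to its library total, after TMM scaling over all 23 libraries) in the HCT116 Control libraries and to 310 to 335 CPM in the HEK293T Control libraries, although CEACAM5 and TFF3 were at 0 in both and CDX2 was lower in HCT116. The neurofilament gene NEFM, high in HEK293 cells, was at 0 in the HCT116 Control libraries and at 353 ± 35.7 CPM in the HEK293T Control libraries (SD, n = 3), and the 15 HEK293 markers summed to 306 to 367 CPM and to 1389 to 1592 CPM. PAX8 of that list ran the other way, at 10.9 ± 2.38 CPM in HCT116 and 0.0434 ± 0.0377 CPM in HEK293T, and PAX2 stood at 12.6 ± 2.07 and 9.54 ± 0.869 CPM. Each ASO lowered its target: SETD5-AS1 had 4.19 ± 0.375 CPM against 51.4 ± 0.454 with NC ASO, LINC00641 had 1.38 ± 0.697 CPM (SD, n = 2) against 39.6 ± 2.23, and LINC00662 had 1.55 ± 0.371 CPM against 12.9 ± 0.906 (SD, n = 3 otherwise). In the HEK293T Control libraries the 3 targets stood lower than with NC ASO, at 29.3 ± 1.44, 27.9 ± 3.09 and 11.6 ± 2.17 CPM (SD, n = 3 each). CBX7 counts were 368 to 437 with the CBX7 reader and 208 to 250 in Control. The group that stood apart was NC ASO. Against the Control libraries of the other HEK293T table, 3000 genes were higher with NC ASO (16.2% of 18519 tested) and 3019 were lower (16.3%), whereas 1178 genes differed from the same Control libraries with SETD5-AS1 ASO, 1061 with LINC00641 ASO and 3162 with LINC00662 ASO. The members' ASO results are therefore given with both references, and for the other named genes the calls that held against Control are counted. The 2 RNA-seq tables were separate deposits, so table and treatment cannot be told apart in any comparison across them.

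**Figure D1:**
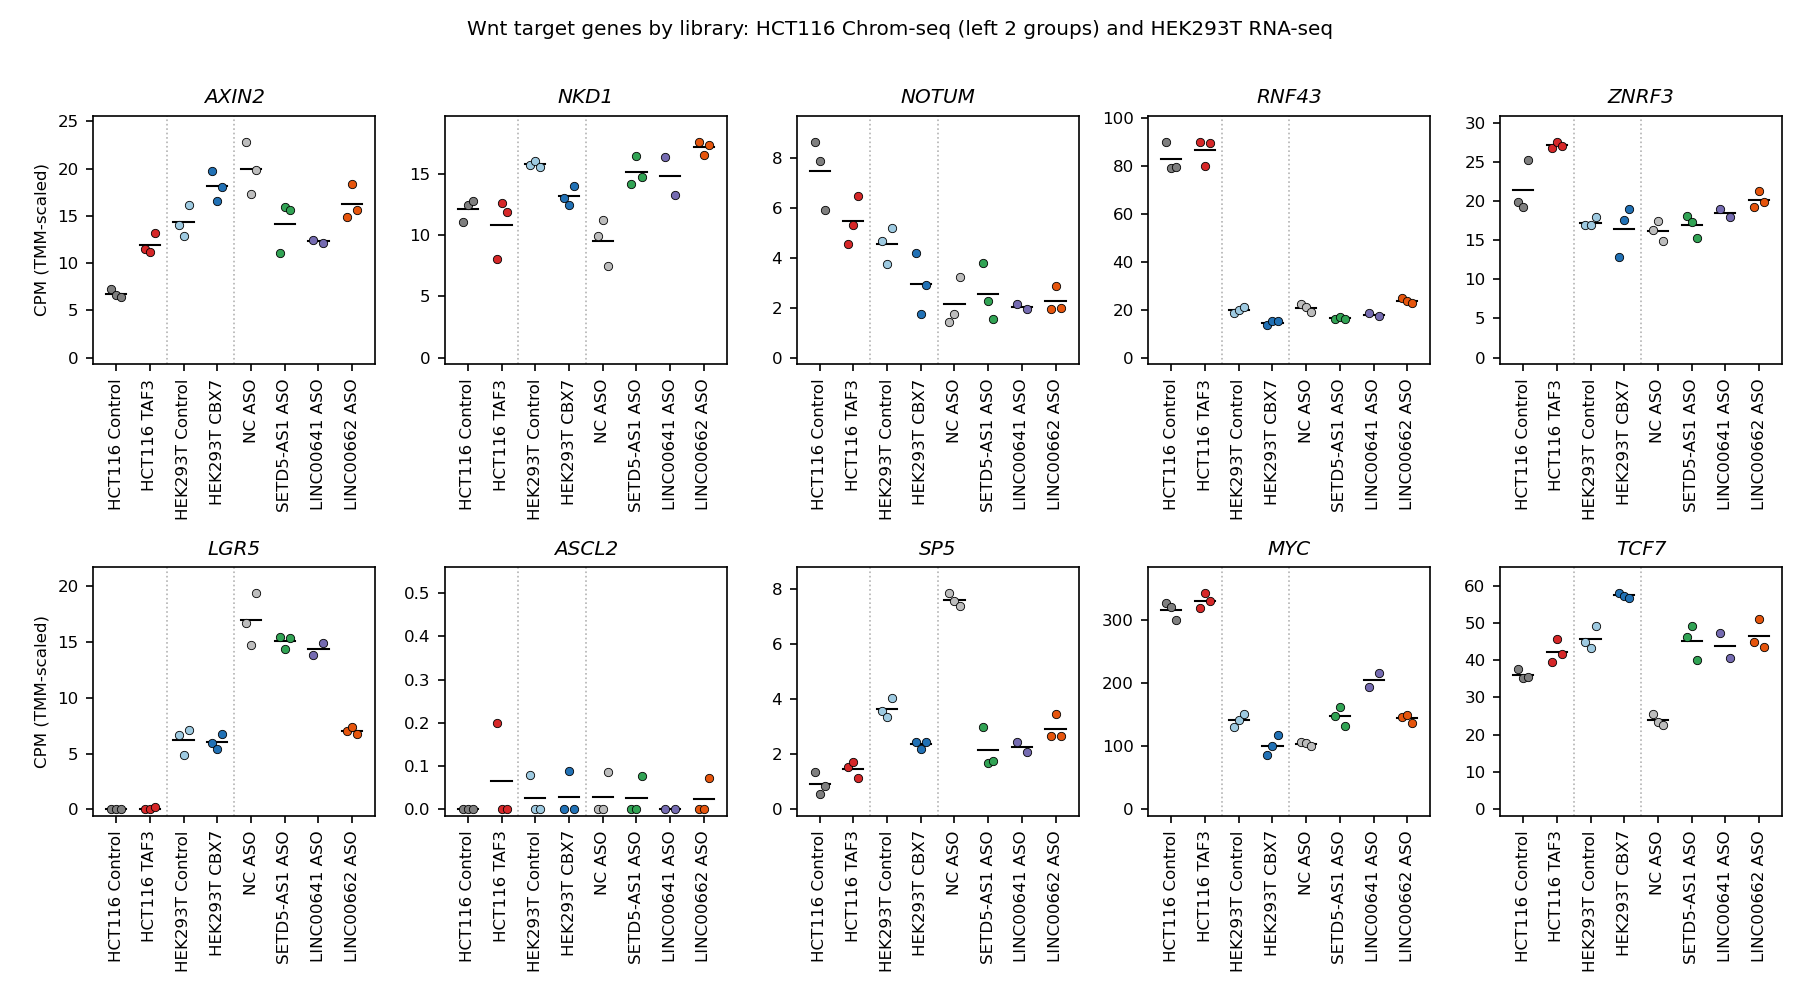
Level of each of the 10 genes in each library, in CPM scaled by TMM over the 23 libraries (linear axes). Points are libraries, horizontal lines are group means, and dotted lines part the HCT116 Chrom-seq table and the 2 HEK293T RNA-seq tables. LGR5 and ASCL2 lie at or near 0 in HCT116, MYC and RNF43 are highest there, and the NC ASO libraries have the highest SP5 and the lowest TCF7 levels among the HEK293T groups.

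In the HCT116 Control libraries the members fell into a wide order of levels. Per kilobase of merged exon (GENCODE v44 mapped to GRCh37), MYC, the growth-promoting transcription factor, was highest at 51.7 ± 2.42 CPM per kb (SD, n = 3). RNF43 followed at 13.1 ± 0.944 CPM per kb. TCF7 (3.58 ± 0.129 CPM per kb), ZNRF3 (3.07 ± 0.473 CPM per kb) and NOTUM (2.57 ± 0.489 CPM per kb) came next, and the ranges of mean ± SD of ZNRF3 and NOTUM touched those of a neighbour. AXIN2 stood at 1.29 ± 0.0845 CPM per kb, NKD1 at 0.697 ± 0.0522 CPM per kb and SP5 at 0.439 ± 0.188 CPM per kb. LGR5, the R-spondin receptor that marks crypt stem cells, and ASCL2, a stem cell transcription factor, had 0 counts in all 3 libraries. A count of 0 allows up to 3 counts, which is 0.190 to 0.200 CPM in these libraries. In HEK293T Control, the order per kilobase was MYC (23.1 ± 1.64 CPM per kb), TCF7 (4.54 ± 0.311 CPM per kb), RNF43 (3.16 ± 0.196 CPM per kb), AXIN2 (2.76 ± 0.321 CPM per kb) and ZNRF3 (2.47 ± 0.0855 CPM per kb). SP5 (1.76 CPM per kb), NOTUM (1.56 CPM per kb) and LGR5 (1.19 CPM per kb) followed with touching ranges, and NKD1 stood at 0.909 CPM per kb. RNF43, AXIN2 and ZNRF3 were neighbours whose mean ± SD ranges touched, which they did not in HCT116. The order between genes rests on exon lengths from a later annotation release than the study counted over. MYC, for example, has 6.109 kb of exon there, against a counted span of 5.995 kb. Whether introns were counted is not known, so another length could change the order.

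Chrom-seq with TAF3 asks which RNAs were recovered more beside H3K4me3 than with the array that has no reader. AXIN2, the scaffold of the destruction complex, was the only 1 of the 8 members tested that was called, and it was higher with TAF3. No member was called lower by edgeR or DESeq2, and NOTUM was the 1 member lower at an unadjusted p under 0.05. Calls required a Benjamini-Hochberg adjusted p under 0.05 and a change of 0.75 or more on the log2 scale in either direction. In this comparison 3.36% of 18731 genes tested were called higher and 3.28% were called lower. At the adjusted p alone, 6539 of the 18731 genes passed in either direction. LGR5 and ASCL2 were not tested, since a gene entered only when its summed count exceeded 3 per library.

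AXIN2 (ENSG00000168646.8, hg19 chr17:63524681-63557765, minus strand) had 7.20, 6.58 and 6.36 CPM in the Control libraries and 11.5, 11.2 and 13.2 CPM with TAF3. The groups did not overlap, and every TAF3 library lay above every Control library. The log2 fold change was 0.83 (SE 0.14, edgeR adjusted p = 5.902e-06), a 1.78-fold difference. It lay between 0.76 and 0.88 when each library was left out in turn, and the call was kept. The gene CTD-2535L24.2 overlaps AXIN2 on the same strand and had 3, 13 and 7 counts in Control and 19, 11 and 23 with TAF3. Its share in the AXIN2 counts was not tested.

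The other feedback inhibitors differed less. ZNRF3 (hg19 chr22:29279580-29453475, plus strand) had 19.9, 19.2 and 25.2 CPM in Control and 26.9, 27.6 and 27.1 CPM with TAF3. The groups did not overlap, and the log2 fold change of 0.34 (SE 0.10, edgeR adjusted p = 0.005894) passed the p but not the fold threshold. Without Control replicate 2 the edgeR adjusted p of ZNRF3 was 0.06604, and it stayed under 0.05 when any other library was left out. RNF43 (hg19 chr17:56429861-56494956, minus strand), the closest relative of ZNRF3 among the members, had 89.9, 79.3 and 79.7 CPM in Control and 90.2, 80.0 and 89.6 CPM with TAF3. Its groups overlapped, with a log2 fold change of 0.061 (SE 0.068, edgeR adjusted p = 0.5224). RNF43 shares its span with SUPT4H1 on the same strand and BZRAP1-AS1 on the other, and whether the counting used strand was not stated. NOTUM (hg19 chr17:79910388-79919716, minus strand) had 8.67, 7.90 and 5.91 CPM in Control and 4.57, 5.33 and 6.5 CPM with TAF3. The groups overlapped through Control replicate 3 and TAF3 replicate 3. Its log2 fold change was -0.46 (SE 0.18, edgeR adjusted p = 0.03674), short of the fold threshold. NKD1 (hg19 chr16:50582241-50670647, plus strand) had 11.1, 12.5 and 12.8 CPM in Control and 8.08, 12.6 and 11.9 CPM with TAF3. Those groups overlapped as well, and TAF3 replicate 1 was the low library. The log2 fold change was -0.16 (SE 0.14, edgeR adjusted p = 0.4023), and without that library it was 0.021.

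Among the transcription factors, TCF7, the TCF family member induced by the pathway, passed the p threshold only. TCF7 (hg19 chr5:133450402-133487556, plus strand) had 37.6, 35.3 and 35.5 CPM in Control and 39.6, 45.7 and 41.7 CPM with TAF3. The groups did not overlap, and the log2 fold change was 0.23 (SE 0.081, edgeR adjusted p = 0.02364). The edgeR adjusted p was 0.1429 without TAF3 replicate 2, and 0.09086 and 0.06799 without Control replicates 2 and 3. It stayed under 0.05 when any other library was left out. SKP1 overlaps TCF7 on the opposite strand. SP5 (hg19 chr2:171571861-171574588, plus strand), a zinc finger repressor that Wnt signals induce, was counted 20, 9 and 13 times in Control and 23, 25 and 15 times with TAF3. The groups overlapped, and at this depth the log2 fold change of 0.70 (SE 0.41, edgeR adjusted p = 0.1876) was not told from 0. It was 1.07 without Control replicate 1 and 0.44 without Control replicate 2, and neither passed the adjusted p. MYC (hg19 chr8:128747680-128753674, plus strand) had 328, 321 and 299 CPM in Control and 319, 343 and 330 CPM with TAF3. With 28785 counts over the 6 libraries it was the best measured member, and its log2 fold change was 0.065 (SE 0.054, edgeR adjusted p = 0.3797).

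ASCL2 (hg19 chr11:2289725-2292182, minus strand) had 3 counts in TAF3 replicate 1 and 0 in the other 5 HCT116 libraries. LGR5 (hg19 chr12:71833550-71980090, plus strand) had 2 counts in TAF3 replicate 3 and 0 in the other 5. Both were at or under 3 counts in every HCT116 library, so no fold is given. These are bulk libraries, so fewer cells with an RNA and less RNA per cell cannot be told apart.

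**Figure D2:**
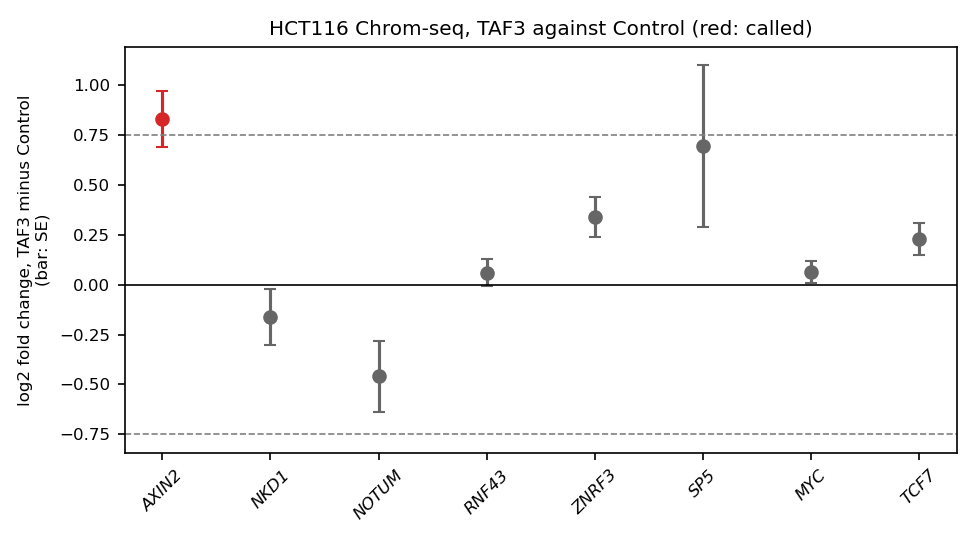
Log2 fold change of the 8 tested genes, HCT116 TAF3 minus Control (3 libraries each). Points are edgeR estimates, bars are standard errors, dashed lines mark the fold threshold of 0.75, and the called gene is red. AXIN2, at 0.83, is the point beyond the upper line, SP5 at 0.70 has the widest bar, and MYC at 0.065 and RNF43 at 0.061 lie near 0.

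The rest of the pathway was followed with 6 lists of Wnt genes in the same HCT116 comparison. Of 14 Wnt ligands tested, 0 were called higher and 1 lower: WNT4, by -1.13 on the log2 scale. Of 18 R-spondins and receptors tested, 0 were called higher and 1 lower, FZD2, a Frizzled receptor, by -0.88. Of 17 cytoplasmic pathway genes, APC2, a relative of APC, was called higher by 1.04 (5.62 ± 0.860 CPM in Control, 11.5 ± 1.87 CPM with TAF3, SD, n = 3 each; edgeR adjusted p = 4.746e-07). None of the 5 secreted inhibitors and none of the 13 genes of the nuclear TCF complex was called by edgeR, although 1 secreted inhibitor and 4 nuclear genes were lower both at the adjusted p alone and at an unadjusted p under 0.05. Of 20 other reported targets, 3 were called higher and 0 lower. The widest of these was SMOC2, a secreted matrix protein of crypt base cells, with 104 counts over the TAF3 libraries and 2 over the Control libraries, a ratio of 56.8 (95% binomial interval 15.3 to 475, counting error only). PROX1 rose by 1.85 on the log2 scale with at most 10 counts per library, and MMP7, a matrix metalloprotease named here after its value was seen, rose by 1.16. The median log2 fold change was -0.29 over the ligands and -0.10 over the nuclear genes, against -0.0052 over all genes tested. In the same libraries the HEK293 marker ENO2, a neuronal enolase, fell by 1.05 on the log2 scale, and 0 of 10 colon markers tested were called by edgeR, with 3 higher and 3 lower at an unadjusted p under 0.05. The part of these markers in the members' values was not tested.

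HEK293T cells with the CBX7 reader gave the RNA-seq comparison in which no member was called. At the thresholds used, 4.17% of 18204 genes were called higher and 3.48% lower, and 0 of the 9 members tested were in either set by edgeR or DESeq2. At an unadjusted p under 0.05, 2 members were higher and 5 lower. At the edgeR adjusted p alone, TCF7 was higher and RNF43, SP5 and MYC were lower. By DESeq2 SP5 did not pass (adjusted p = 0.1331), while TCF7, RNF43 and MYC did. Over all genes, 5318 of 18204 passed the adjusted p alone in either direction. TCF7 had 44.9, 43.3 and 49.3 CPM in Control and 58.0, 57.4 and 56.8 CPM with CBX7, and the groups did not overlap. Its log2 fold change was 0.30 (SE 0.083, edgeR adjusted p = 0.01268). MYC had 131, 142 and 151 CPM in Control and 85.4, 101 and 117 CPM with CBX7, and every CBX7 library was below every Control library. The log2 fold change of MYC was -0.51 (SE 0.10, edgeR adjusted p = 0.001496), that of RNF43 was -0.48 (SE 0.11, edgeR adjusted p = 0.005013) and that of SP5 was -0.65 (SE 0.23, edgeR adjusted p = 0.0447). AXIN2 had 14.0, 12.9 and 16.2 CPM in Control and 19.8, 16.6 and 18.1 CPM with CBX7. Although those groups did not overlap, the log2 fold change of 0.31 (SE 0.13) had an edgeR adjusted p of 0.07919. The values for NKD1 (-0.28), NOTUM (-0.68), ZNRF3 (-0.084) and LGR5 (-0.068) on the log2 scale did not pass the adjusted p either. NOTUM was measured with 20 to 84 counts per library and was called lower when CBX7 replicate 1 (log2 fold change -0.99) or Control replicate 2 (-0.80) was left out. In the wider pathway, the ligand WNT3 fell by 0.94, the receptor ROR1 by 0.77, the co-repressor TLE2 by 0.79 and the target SOX4 by 0.87 on the log2 scale, whereas APC2 rose by 1.20. These were the called genes of their lists, at 1 of 15 ligands, 1 of 21 receptors, 1 of 15 nuclear genes, 1 of 22 other targets and 1 of 17 cytoplasmic genes. None of 10 secreted inhibitors was called by edgeR, while 3 were lower at the adjusted p alone and 4 at an unadjusted p under 0.05. Of 13 HEK293 markers tested 1, NEFM, was called and fell by 1.03 on the log2 scale, 6 were lower at the adjusted p alone, and the median was -0.37 against -0.012 over all genes tested. The part of these markers in the members' values was not tested.

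The 3 ASO groups were each compared with NC ASO, so these comparisons share their controls and are given side by side. Against NC ASO, SP5 was called lower and TCF7 higher with every targeting ASO. MYC was also called higher with LINC00641 ASO, NKD1 was called higher with LINC00662 ASO, and LGR5 was called lower with LINC00662 ASO. Of 9 members tested, 1 was called higher and 1 lower with SETD5-AS1 ASO, where 12.9% and 11.5% of 18544 genes were called. With LINC00641 ASO, 2 were called higher and 1 lower, where 11% and 11.5% of 18503 genes were. With LINC00662 ASO, 2 were called higher and 2 lower, where 11.6% and 13.3% of 18562 genes were. Against Control the calls differed, apart from SP5 with SETD5-AS1 ASO. LGR5 was called higher and NOTUM and SP5 lower with SETD5-AS1 ASO, where 3.58% of 18345 genes were called higher and 2.84% lower. LGR5 was called higher and NOTUM lower with LINC00641 ASO, where 2.38% of 18291 genes were called higher and 3.42% lower. With LINC00662 ASO NOTUM was the member called, as lower, where 5.95% of 18382 genes were called higher and 11.3% lower.

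SP5 had 7.84, 7.55 and 7.39 CPM with NC ASO, from 85 to 105 counts per library. It had 2.98, 1.70 and 1.77 CPM with SETD5-AS1 ASO, 2.45 and 2.09 CPM with LINC00641 ASO, and 2.65, 3.47 and 2.65 CPM with LINC00662 ASO. All 8 targeting libraries lay below all 3 NC ASO libraries. The log2 fold changes were -1.83 (SE 0.22, edgeR adjusted p = 2.143e-06), -1.74 (SE 0.22, edgeR adjusted p = 1.599e-06) and -1.33 (SE 0.19, edgeR adjusted p = 1.525e-06) in that order. In the Control libraries of the other table SP5 had 3.58, 3.34 and 4.03 CPM, and NC ASO was higher than Control by 1.05 (SE 0.17, edgeR adjusted p = 6.374e-05). Against Control the SP5 values were -0.78 (edgeR adjusted p = 0.0371), -0.70 (0.06603) and -0.34 (0.2355) on the log2 scale. Only the first of these was called.

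TCF7 had 25.6, 23.5 and 22.6 CPM with NC ASO, and between 40.1 and 51.0 CPM in the 8 targeting libraries, with no overlap. The log2 fold changes were 0.92 (SE 0.098, edgeR adjusted p = 4.404e-07) with SETD5-AS1 ASO, 0.88 (SE 0.10, edgeR adjusted p = 7.566e-07) with LINC00641 ASO and 1.00 (SE 0.093, edgeR adjusted p = 8.074e-10) with LINC00662 ASO. The Control libraries, at 44.9, 43.3 and 49.3 CPM, lay within the range of the targeting libraries. TCF7 in NC ASO fell by 0.94 from its Control level on the log2 scale (SE 0.095, edgeR adjusted p = 2.795e-07). Against Control its values with the 3 targeting ASOs were -0.030, -0.075 and 0.0065, and none of them was called.

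MYC had 106, 105 and 101 CPM with NC ASO, 148, 162 and 133 CPM with SETD5-AS1 ASO, 193 and 217 CPM with LINC00641 ASO, and 146, 150 and 137 CPM with LINC00662 ASO. Every targeting library exceeded every NC ASO library. The LINC00641 ASO difference was 0.98 on the log2 scale (SE 0.082, edgeR adjusted p = 6.11e-09), and the other 2 were 0.50 and 0.52, short of the fold threshold with edgeR adjusted p of 7.234e-05 and 3.623e-07. Against Control, MYC differed by 0.53 with LINC00641 ASO (SE 0.097, edgeR adjusted p = 0.001602), which passed the p but not the fold threshold, and by 0.053 and 0.019 with the others.

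LGR5 was called lower with LINC00662 ASO. It had 16.7, 14.8 and 19.4 CPM with NC ASO, 15.5, 14.4 and 15.4 CPM with SETD5-AS1 ASO, 13.8 and 14.9 CPM with LINC00641 ASO, and 6.98, 7.34 and 6.79 CPM with LINC00662 ASO. The log2 fold change was -1.22 (SE 0.14, edgeR adjusted p = 2.909e-08) with LINC00662 ASO, a 2.33-fold lower level. It was -0.17 (SE 0.12, edgeR adjusted p = 0.258) and -0.23 (SE 0.14, edgeR adjusted p = 0.1756) with the other ASOs. The Control libraries had 6.68, 4.84 and 7.12 CPM. Against them LGR5 was higher by 1.26 with SETD5-AS1 ASO, by 1.20 with LINC00641 ASO and by 1.44 with NC ASO, and it differed by 0.16 (edgeR adjusted p = 0.4681) with LINC00662 ASO. The difference between the ASO groups was not tested.

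Among the feedback inhibitors, NKD1 was called against NC ASO and NOTUM against Control. NKD1 had 9.93, 11.2 and 7.48 CPM with NC ASO and 17.6, 16.5 and 17.4 CPM with LINC00662 ASO, a log2 fold change of 0.89 (SE 0.14, edgeR adjusted p = 3.227e-06). It was 0.74 without NC ASO replicate 3, the lowest library, and was then not called. With SETD5-AS1 ASO (0.66) and LINC00641 ASO (0.63) NKD1 passed the adjusted p only, and against Control its values were -0.070, -0.10 and 0.11 on the log2 scale. AXIN2 had 22.9, 17.3 and 19.8 CPM with NC ASO, 11, 15.9 and 15.6 CPM with SETD5-AS1 ASO, and 12.5 and 12.1 CPM with LINC00641 ASO. These groups did not overlap, and the log2 fold changes of -0.49 (SE 0.14, edgeR adjusted p = 0.007543) and -0.70 (SE 0.14, edgeR adjusted p = 0.0002908) passed the p but not the fold threshold. With LINC00662 ASO, AXIN2 had 14.9, 18.4 and 15.6 CPM, the groups overlapped, and the value was -0.25 (edgeR adjusted p = 0.08456). RNF43 was -0.36 with SETD5-AS1 ASO (edgeR adjusted p = 0.009742), -0.22 with LINC00641 ASO and 0.23 with LINC00662 ASO. ZNRF3 was 0.36 with LINC00662 ASO (edgeR adjusted p = 0.007343) and 0.058 and 0.19 with the others. NOTUM had 19 to 47 counts per library and log2 fold changes of 0.26, -0.039 and 0.15, with SE of 0.31 to 0.36, so no difference was detectable at this depth. In the Control libraries NOTUM stood higher, at 4.69, 3.75 and 5.20 CPM, and NC ASO lay below them with a log2 fold change of -1.11 (edgeR adjusted p = 0.002496). Against Control NOTUM was called lower with each targeting ASO, at -0.86, -1.16 and -1.01 on the log2 scale (edgeR adjusted p of 0.03112, 0.005819 and 0.002234). Between NC ASO and Control 2 members were called higher, LGR5 and SP5, where 16.2% of 18519 genes were. NOTUM and TCF7 were the 2 called lower, where 16.3% of genes were. ASCL2 had at most 1 count in each of the 17 HEK293T libraries.

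**Figure D3:**
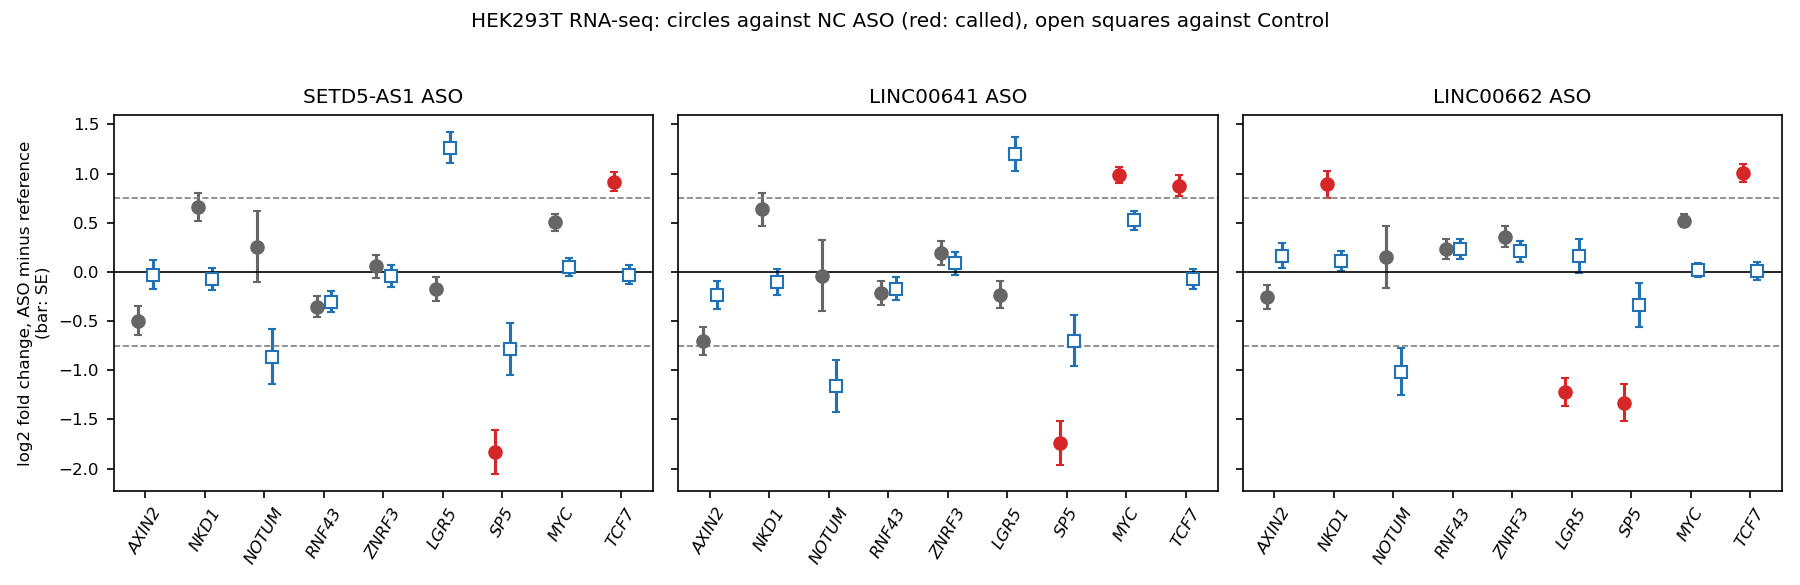
Log2 fold change of the 9 tested genes with each targeting ASO in HEK293T RNA-seq. Circles are set against NC ASO (called genes red, others grey), open squares against the Control libraries of the other table, bars are standard errors, and dashed lines mark the fold threshold of 0.75. TCF7 lies above the line in all 3 panels as a circle and near 0 as a square, and LGR5 lies above the line as a square with SETD5-AS1 ASO and LINC00641 ASO.

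Other genes of the pathway differed from NC ASO as well, but few of these calls were also made against Control. Of the called genes named here from the pathway and marker lists, 24, 23 and 26 could be tested against Control for SETD5-AS1, LINC00641 and LINC00662 ASO. The call held in the same direction by edgeR for 0, 1 and 5 of them, and the sign turned for 12, 12 and 9. The matching shares over all genes called against NC ASO were not computed. Whether these counts are particular to the listed genes was therefore not tested. The 1 gene with LINC00641 ASO was FGF20 (-2.24 against Control), and the 5 with LINC00662 ASO were WNT7B (1.16), WNT3 (-1.30), TLE4 (-2.28), KIAA1199 (2.34) and NES (-1.32). CTNNBIP1 was called in the opposite direction with LINC00662 ASO (-1.02). The values that follow are against NC ASO unless Control is named. CTNNB1, which encodes beta-catenin, had 404 ± 16.6 CPM with NC ASO, 228 ± 16.4 CPM with SETD5-AS1 ASO and 228 ± 2.97 CPM with LINC00662 ASO (SD, n = 3 each). It fell by 0.83 and 0.78 on the log2 scale, and it stood at 203 ± 7.56 CPM in Control, from which it differed by 0.16 with either ASO (edgeR adjusted p of 0.1781 and 0.0592). With LINC00641 ASO CTNNB1 had 244 ± 0.0342 CPM (SD, n = 2), also below its level with NC ASO, but was not called. WLS, which carries Wnt ligands to the cell surface, rose by 1.14, 0.85 and 1.03 with SETD5-AS1, LINC00641 and LINC00662 ASO, and APC2 fell by 0.84, 0.89 and 0.91, whereas against Control WLS stood at -0.093, -0.39 and -0.24 and APC2 at 0.47, 0.41 and 0.34. GSK3B rose by 0.82 with LINC00641 ASO and FBXW11 by 0.97 with LINC00662 ASO. In all, 1, 3 and 2 of 17 cytoplasmic genes were called higher and 2, 1 and 2 lower. Of 15 nuclear genes 1, 2 and 2 were called higher and 2, 2 and 3 lower. CTNNBIP1, an inhibitor of the contact between beta-catenin and TCF, rose by 1.33, 1.48 and 0.86, and against Control stood at -0.50, -0.35 and -1.02. The acetyltransferase EP300 fell by 1.25 and 1.24 with the first 2 ASOs, and PYGO1 fell by 1.00, 0.78 and 1.87. TCF7L1 rose by 0.78 with LINC00641 ASO and by 1.501 with LINC00662 ASO, and TLE4, a co-repressor, fell by 2.59 with LINC00662 ASO. Nuclear genes had median log2 fold changes of -0.36, -0.31 and -0.28, against 0.028, 0.0042 and 0.0013 over all genes tested. Against Control these medians were -0.22, -0.23 and -0.30, with 0.0085, -0.0077 and 0.0025 over all genes.

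Receptors and ligands were mixed in direction. RYK, a receptor for Wnt ligands, rose by 1.5, 1.58 and 1.77, with 0.24, 0.31 and 0.46 against Control, and ROR1 rose by 1.31 with SETD5-AS1 ASO. ROR2 rose by 1.17 and 1.09 with LINC00641 and LINC00662 ASO. FZD7 fell by 0.89 and 0.81 with the first 2 ASOs, FZD10 fell by 0.77 with LINC00641 ASO, and with LINC00662 ASO FZD9 fell by 1.38 and RSPO2 by 2.22. Receptors called higher and lower numbered 3 and 1 of 20, 2 and 3 of 20, and 2 and 4 of 19. The ligand WNT10B fell by 0.76, 1.08 and 1.33, and against Control stood at 0.63, 0.30 and 0.0074. WNT7B rose by 1.53 with SETD5-AS1 ASO and by 2.12 with LINC00662 ASO, WNT8B rose by 1.38 with the first and WNT9A by 1.09 with the second. WNT16 fell by 1.48 with LINC00641 ASO and WNT3 by 1.13 with LINC00662 ASO. Ligands called higher and lower numbered 2 and 1 of 16, 0 and 2 of 15, and 2 and 2 of 15.

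Secreted inhibitors called higher and lower numbered 2 and 2 of 11, 0 and 2 of 9, and 1 and 1 of 10. WIF1, which binds Wnt ligands, fell by 1.78, 1.93 and 1.38 from 3.88 ± 1.09 CPM (SD, n = 3) with NC ASO, and stood at 1.48 ± 0.383 CPM in Control. In addition, DKK1 fell by 1.38 and DKK3 rose by 0.90 with SETD5-AS1 ASO, KREMEN2 fell by 0.80 with LINC00641 ASO and SFRP1 rose by 0.92 with LINC00662 ASO. SFRP5 had 20 counts over the SETD5-AS1 ASO libraries against 3 with NC ASO, a ratio of 6.29 (95% binomial interval 1.87 to 33.1). Other reported targets called higher and lower numbered 3 and 5, 2 and 7, and 3 and 4 of 22. BMP4 fell by 1.67, 1.48 and 1.33, and against Control stood at -0.56, -0.39 and -0.28. EPHB2 rose by 1.08 and 1.02 with the first 2 ASOs, and JUN rose by 1.78 and 1.01 with the last 2. SOX9, a crypt transcription factor, fell by 1.53 with LINC00662 ASO and KIAA1199 rose by 1.61. FOSL1 fell by 1.45 and SMOC2 rose by 1.42 with SETD5-AS1 ASO, and FGF20 fell by 1.87 with LINC00641 ASO, from at most 11 counts.

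Markers moved in the same libraries. Colon markers called higher and lower numbered 0 and 4 of 6, 0 and 4 of 6, and 1 and 1 of 7, and KRT8 fell by 1.44 and 1.14 with SETD5-AS1 and LINC00641 ASO and stood at -0.30 and -0.00071 against Control. VIL1 had 18 counts over the NC ASO libraries and 3, 1 and 0 in the 3 groups, ratios of 6.36 (95% binomial interval 1.86 to 33.7) and 13.6 (2.15 to 567) for the first 2. With LINC00662 ASO CDH1 rose by 1.15 and CDX2 fell by 0.95, whereas against Control they stood at 0.22 and -0.031 and neither passed the adjusted p. HEK293 markers called higher and lower numbered 1 and 2, 2 and 1, and 0 and 3 of 14. CDH2 rose by 0.82 and 0.83 with the first 2 ASOs, HOXA10 had log2 fold changes of -1.37, -2.12 and -3.10, ZIC2 fell by 0.80 with SETD5-AS1 ASO, NEFM rose by 0.76 with LINC00641 ASO and NES fell by 0.82 with LINC00662 ASO. Their part in the members' values was not tested.

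The genes whose log2 CPM ran most like that of AXIN2 over the 11 ASO-table libraries were SLC30A6 (Pearson r = 0.934), BAHD1 (0.933), C12orf49 (0.927), CSRNP2 (0.911) and CBFB (0.906), among 10906 genes averaging 100 counts or more. The 11 libraries share 4 treatments and the NC ASO group, and the values are a description. SP5, NOTUM and ASCL2 averaged fewer than 100 counts and could not enter this ranking. None of the remaining members was among the 5.

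The HCT116 Chrom-seq Control libraries were then set against the HEK293T RNA-seq Control libraries. The HCT116 Control cells carried the array and APEX2 and were exposed to biotin-aniline and H2O2, whereas the HEK293T Control cells were described as untreated. Cell line, treatment, assay and table therefore cannot be told apart here, and raw counts of the 2 tables were scaled together. RNF43 and MYC were higher in the HCT116 libraries, and AXIN2, SP5 and LGR5 were lower. Of 9 members tested, 2 were called higher, where 27.1% of 19456 genes were, and 3 lower, where 26.7% were.

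RNF43 had 89.9, 79.3 and 79.7 CPM in HCT116 and 18.8, 20.1 and 21.2 CPM in HEK293T Control, a 4.10-fold difference (log2 fold change 2.04, SE 0.091, edgeR adjusted p = 1.282e-14). MYC had 328, 321 and 299 CPM against 131, 142 and 151 CPM, a 2.22-fold difference (log2 fold change 1.15, SE 0.077, edgeR adjusted p = 1.211e-11). For both genes the lowest HCT116 library was above the highest of the 17 HEK293T libraries. AXIN2 went the other way, at 7.20, 6.58 and 6.36 CPM against 14.0, 12.9 and 16.2 CPM. Its log2 fold change was -1.11 (SE 0.14, edgeR adjusted p = 3.953e-07). SP5 had 1.33, 0.569 and 0.827 CPM against 3.58, 3.34 and 4.03 CPM, a log2 fold change of -2.02 (SE 0.31, edgeR adjusted p = 4.744e-06). LGR5 had 84, 71 and 115 counts in HEK293T Control and 0 in each HCT116 Control library. Against a floor of 3 counts per library it was at least 32.1-fold lower in HCT116. ASCL2 was under the floor in both.

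ZNRF3 (log2 fold change 0.30, edgeR adjusted p = 0.0272) and NOTUM (0.70, edgeR adjusted p = 0.002241) were higher in HCT116, and NKD1 (-0.39, edgeR adjusted p = 0.00546) and TCF7 (-0.36, edgeR adjusted p = 0.000984) were lower, each short of the fold threshold. With NC ASO as the HEK293T group, where 28.5% of 19606 genes were called higher and 28.9% lower, the 5 called members kept direction and call, at 2.004 for RNF43, 1.62 for MYC, -1.56 for AXIN2 and -3.04 for SP5 on the log2 scale and at least 87.6-fold lower for LGR5. NKD1 turned to 0.36 and TCF7 to 0.61, and NOTUM, at 1.85 (edgeR adjusted p = 2.545e-08), was then called higher.

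**Figure D4:**
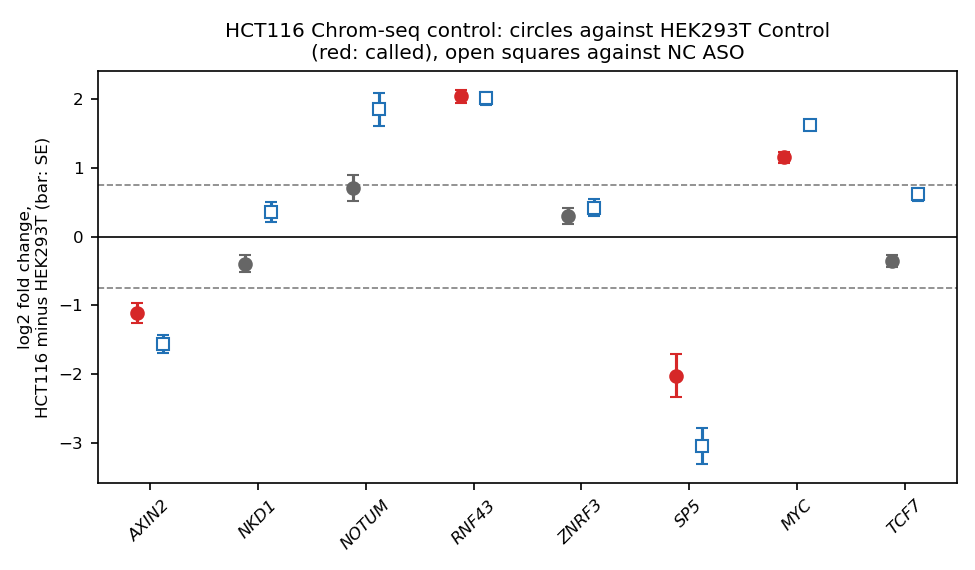
Log2 fold change, HCT116 Chrom-seq Control minus HEK293T RNA-seq, of the 8 members with counts in both (LGR5 is left out because its HCT116 counts are 0). Circles are set against HEK293T Control (called genes red), open squares against NC ASO, bars are standard errors and dashed lines mark the fold threshold of 0.75. RNF43 and MYC lie above the upper line and AXIN2 and SP5 below the lower line with either reference, and NKD1 and TCF7 change sign between them.

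The other Wnt genes differed widely between the same 2 groups. LEF1, a TCF family factor, and TLE4 had 0 counts in the HCT116 Control libraries, at least 129-fold and 546-fold lower than in HEK293T Control. TCF7L2, the main TCF factor of colon epithelium, had 373 ± 14.1 CPM against 52.0 ± 9.60 CPM (SD, n = 3 each), which is 2.83 on the log2 scale, and BCL9L was higher by 2.38. In all, 2 of 15 nuclear genes were called higher and 6 lower. Among 16 ligands tested 7 were higher and 6 lower. WNT16 had 280 ± 24.6 CPM in HCT116 and 0.327 ± 0.146 CPM in HEK293T, and WNT7A was higher by 4.09, whereas WNT5A was at least 121-fold lower and WNT9B at least 4.99-fold lower in HCT116. Of 21 receptors and R-spondins 3 were higher, with FZD6 at 1.99 and RSPO4 at 1.75, and 8 were lower, with FZD10 at least 21.3-fold and RSPO3 at least 2.84-fold lower. Of 9 secreted inhibitors 2 were higher and 5 lower. DKK1, an inhibitor of LRP co-receptors, had 177 ± 2.93 CPM against 1.59 ± 0.661 CPM, FRZB was higher by 2.33, WIF1 was at least 7.65-fold lower, and SFRP1 had 1 count over the HCT116 libraries against 3271, a ratio of 3509 (95% binomial interval 629 to 138652). Of 17 cytoplasmic genes 3 were higher and 6 lower, with TNKS at 1.58, APC2 at 1.23, DVL2 at -1.40 and AMER1 at -1.39. Of 23 other reported targets 12 were higher and 10 lower. CD44, a surface glycoprotein of crypt cells, had 1149 ± 39.4 CPM against 4.15 ± 1.25 CPM and FOSL1 was higher by 7.05, whereas APCDD1 had 2 counts over the HCT116 libraries against 405, a ratio of 217 (59.8 to 1800), and FGF20 was at least 4.55-fold lower. Of 10 colon markers 9 were higher, led by KRT19 and KRT20, and CDX2 was lower, at -1.12. Of 14 HEK293 markers 1, PAX8, was higher and 10 lower, led by NEFM and NEFL.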

How the data were processed

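Raw read counts per gene, not normalized, are what the authors deposited. Per the submitters' processing notes and the study's methods, reads were trimmed with fastp 0.23.1, aligned to hg19 with HISAT2 2.1.0 and counted over GENCODE genes with featureCounts 2.0.1; FastQC 0.11.8 and DESeq2 1.34.0 were also named. Random bases at the read ends were trimmed, and no removal of duplicates was described. The gene length column equals the genomic span, and whether introns or strand entered the counting is not given in the sources used here. The HCT116 table and both HEK293T RNA-seq tables supplied 23 libraries, grouped by sample title. Mouse tables and the HEK293T Chrom-seq table were not used here, so the 3 planned comparisons with HEK293T Chrom-seq were not analysed here.

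For every comparison its 2 groups alone entered the quasi-likelihood test of edgeR 4.0.16 (R 4.3.3), with TMM scaling and Benjamini-Hochberg adjustment over all genes whose summed count exceeded 3 per library. Calls needed an adjusted p under 0.05 together with 0.75 or more on the log2 scale, as in the study, which used DESeq2. Standard errors were derived from the F statistic. CPM levels use 1 TMM scale for the 23 libraries and so run across separately deposited tables. The procedure was tested on simulated counts. Among 22 replicate pairs no pair was identical, and chi-square per gene was at least 2.41. The labels do not say that replicates came from separate cultures, so p-values measure the spread between these libraries, which may be technical. Intervals and floors cover counting error only, since PCR reads are not independent molecules.

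The members and lists were chosen with earlier results of these data known. The text names all 10 members in each comparison, up to 2 called genes with the largest rise and 2 with the largest fall in every other list, and the 5 genes most like AXIN2. Alternatives were DESeq2 1.42.0, its size factors, library size alone, no filter, filterByExpr, a replicate block, each library left out, and the other HEK293T group as reference, which for the ASOs was chosen after seeing the data.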

Additional observations from a re-analysis of the deposited data

How the results depend on the processing

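The reference group mattered most. Against the Control libraries of the other table, an alternative chosen after seeing the data, called genes fell to 1178 with SETD5-AS1 ASO and 1061 with LINC00641 ASO, and were 3162 with LINC00662 ASO. Members called were then 1 higher and 2 lower with SETD5-AS1 ASO, 1 higher and 1 lower with LINC00641 ASO, and 0 higher and 1 lower with LINC00662 ASO by edgeR. Directions turned with SETD5-AS1 ASO for NKD1 (-0.070), NOTUM (-0.86), ZNRF3 (-0.042), LGR5 (1.26) and TCF7 (-0.030), with LINC00641 ASO for NKD1 (-0.10), LGR5 (1.20) and TCF7 (-0.075), and with LINC00662 ASO for AXIN2 (0.17), NOTUM (-1.01) and LGR5 (0.16), all on the log2 scale. With NC ASO as the HEK293T group, NKD1 (0.36) and TCF7 (0.61) turned in the cell line comparison. The cause was not tested.

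Library size alone moved the median of all genes by over 0.1 for SETD5-AS1 ASO, from 0.028 to 0.17, and for the cell lines, from -0.0032 to -0.16. The share of calls that were higher with SETD5-AS1 ASO went from 52.8% to 66.5%, members called higher to 2, and NOTUM with LINC00641 ASO to 0.033.

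Leaving out each library in turn gave 0 to 1 members lower for CBX7, 1 to 2 higher for SETD5-AS1 ASO, 2 to 3 higher and 1 to 2 lower for LINC00641 ASO, 1 to 2 higher for LINC00662 ASO and 2 to 3 higher for the cell lines. NOTUM was gained for CBX7 without CBX7 replicate 1 or Control replicate 2, and for the cell lines without HCT116 Control replicate 3 (0.86) or HEK293T Control replicate 3 (0.81). With LINC00641 ASO, AXIN2 was gained as lower without NC ASO replicate 2 (-0.81) and NKD1 as higher without LINC00641 ASO replicate 3 (0.78). NKD1 was gained with SETD5-AS1 ASO without NC ASO replicate 2 (0.78) and lost with LINC00662 ASO without NC ASO replicate 3 (0.74). Values that turned ranged from -0.29 to 0.021 for NKD1 with TAF3, from -0.19 to 0.058 for ZNRF3 and -0.22 to 0.057 for LGR5 with CBX7, from -0.14 to 0.66 for NOTUM and -0.0086 to 0.13 for ZNRF3 with SETD5-AS1 ASO, and for NOTUM from -0.29 to 0.36 with LINC00641 ASO and -0.086 to 0.56 with LINC00662 ASO. The fit of LINC00641 ASO without 1 of its 2 libraries assumes that the lone library varies like the others.

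Same-numbered deviations correlated weakly, from -0.070 to 0.18. With CBX7 the values were 0.080, 0.18 and 0.058. They exceeded the highest other-numbered value for replicates 2 and 3 but not for replicate 1. With the replicate block, called genes numbered 1204 for TAF3, 1433 for CBX7, 4370, 3769 and 4506 for the 3 ASOs, and no member's call changed. DESeq2 and its size factors, no filter and filterByExpr changed no member's call. The comparisons with HEK293T Chrom-seq were not run. Counts of 9 to 25 per library limit SP5 in HCT116.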
